A study of Mus musculus with 20 samples.

Results

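Adipocyte precursor cells of the visceral fat were compared between mice fed a high-fat diet (HFD) and mice kept on a standard diet (SD), by RNA sequencing. The comparison takes 9 of the 20 libraries of the series, those of the perigonadal depot (VWAT): 5 HFD libraries and 4 SD libraries. They were chosen by their labels, except that the library labelled VWAT SD 5 was left out for its depot markers, as described below. HFD mice were female C57Bl6/J animals of 8 to 11 weeks that ate a diet with 60% lard for 3 days. SD mice had the same sex, strain and age, stayed on standard chow and carry the time point day 0, so diet and day of collection cannot be told apart. Each library pooled the tissue of 3 mice, so a replicate is a pool and not an animal, and cells were sorted as CD45- and CD31- and as CD29+, CD34+ and Sca1+, with either CD24 state. A library here is named by its diet and replicate (HFD 1 to 5, SD 1 to 4).

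Adipocyte precursors are mesenchymal cells between the fat cells and around the vessels of adipose tissue. They divide and differentiate to give new adipocytes, and they also lay down the collagen scaffold of the depot. In mice, visceral precursors are known to enter the cell cycle within days of high-fat feeding. The comparison asks which genes differ in sorted visceral precursors at that early time.

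The library labelled VWAT SD 5 was left out because it carried the genes of the subcutaneous depot. In counts per 1000000 reads on genes (CPM), before scaling between libraries, it had 0.165 for Wt1 and 0.372 for Tcf21, transcription factors of visceral fat, against 76.2 to 244 and 43.6 to 102 in the 9 libraries used. It had 34.6 CPM for Irx1 and 13.7 CPM for Shox2, transcription factors of subcutaneous fat, where the 9 libraries reached at most 0.790 and 0.695 CPM. The library labelled SWAT SD 5, from the subcutaneous (inguinal) depot, showed the opposite pattern, with 83.8 CPM for Wt1 and 0.491 CPM for Irx1, and was not taken in as a replacement. CPM below are scaled by TMM over the 9 libraries, and since they are not divided by length, levels are compared between libraries and not between genes.

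The libraries of the SD group did not resemble each other. Reads on genes ranged from 21.5 to 36.8 M (M, 1000000 reads) in HFD and from 15.0 to 15.8 M in SD 2 to 4, while SD 1 had 42.3 M. Reads assigned to no feature made up 3.61% to 4.6% in HFD, 9.06% in SD 2, 9.80% in SD 3 and 6.33% in SD 4, but 3.36% in SD 1. The GC trend, the rank correlation across genes between a gene's deviation in a library and its GC content, was -0.71 to -0.16 in HFD and 0.61 to 0.69 in SD 2 to 4, with SD 1 at -0.57. By these measures SD 1 lay with the HFD libraries and SD 2 to 4 stood apart, a grouping that was not itself tested. The test run was of HFD against all SD libraries, SD 1 included. Its exact two-sided permutation p was 0.0317 for the GC trend and 0.0556 for the no-feature share. Adjusted over 16 measures it was 0.127 for both. SD 1 was nearer to the HFD mean than to the mean of SD 2 to 4 for 82.2% of all tested genes. Of the genes called below, this held for 93.1% of those lower and 71.0% of those higher in HFD. It held for 31 of the 61 tested mitosis genes. The depth and GC trend of a library can therefore not be told apart from its diet in most of the SD group. For that reason 3 kinds of value are given: the edgeR fit of all 9 libraries, the same fit with a correction of each library for gene GC content, and the ratio of the HFD mean to SD 1 alone, which has no test.

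**Figure D1:**
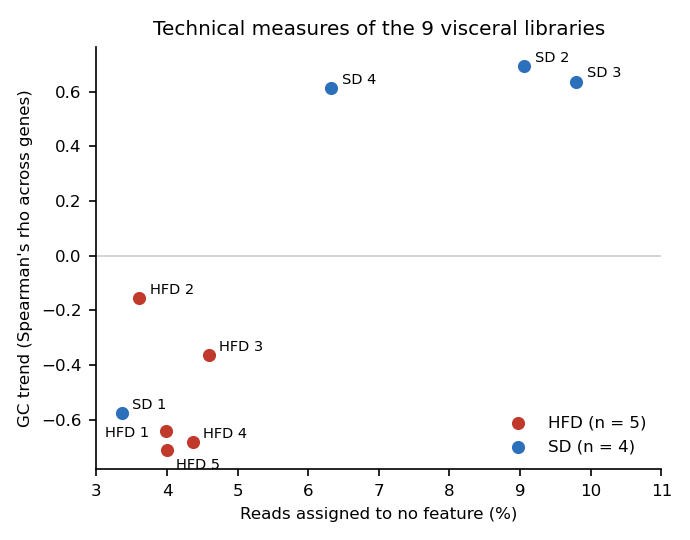
Each point is 1 of the 9 visceral libraries, HFD in red and SD in blue, placed by its share of reads assigned to no feature (x axis, percent) and its GC trend (y axis, Spearman's rho across genes). SD 1, at 3.36% and -0.57, lies among the 5 HFD libraries, and SD 2 to 4 lie at 6.33% to 9.80% and 0.61 to 0.69.

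Of 13482 genes tested, 1274 were higher in HFD and 2541 lower past the threshold, an edgeR adjusted p below 0.05, which is 9.45% and 18.8% of all tested. "Rose" and "fell" are used below for genes past that threshold, and sizes are log2 fold changes of HFD over SD. The shares of 9.45% and 18.8% are the background of counts of list members that rose or fell in the fit of 9 libraries. A stricter description asks that every HFD library lie above, or below, every SD library, SD 1 included: 806 genes (5.98%) were higher and 636 (4.72%) lower without overlap. With the GC correction 650 genes (4.82%) rose and 1433 (10.6%) fell, and 423 of the higher and 966 of the lower genes were called by both fits. The background of list counts with the GC correction is 4.82% and 10.6%. For list members that rose or fell without overlap it is 4.49% and 3.72%. The median log2 fold change over all tested genes was 0.08, and -0.09 with the GC correction.

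The threshold is sensitive to single libraries. Without SD 1 the fit called 4473 genes higher and 4081 lower. Without SD 2 it called 2 genes, Adam12 and Cxcl10, and without HFD 1, HFD 4 or HFD 5 it called 1 each. Without SD 4 it called 3 higher and 1 lower. Without SD 3 edgeR called 0 genes, with 4755 genes at an unadjusted p under 0.05 and 1 gene called by limma-voom. Of the 3815 genes called with 9 libraries, between 2630 and 3810 had an adjusted p under 0.10 in each of the 9 leave-one-out fits of edgeR. With limma-voom 5, 1 and 24 of all tested genes had an adjusted p under 0.10 without SD 2, SD 3 and SD 4. With the no-feature share of each library as a covariate edgeR called 0 genes, with 1293 at an unadjusted p under 0.05. These limits hold for every "rose" and "fell" below except where a gene is said to keep its call.

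Depot markers served to choose the libraries, so that their levels in the 9 libraries are a description, and they were compared here between the diets. Wt1 had 196, 215, 158, 222 and 184 CPM in HFD 1 to 5, against 226, 115, 183 and 78.3 CPM in SD 1 to 4. The groups overlapped, with SD 1 at the top and SD 4 at the bottom, and the log2 fold change was 0.37 ± 0.28 (SE, edgeR adjusted p = 0.294). Tcf21 had 93.5, 67.1, 60.6, 67.9 and 69.9 CPM in HFD 1 to 5, against 57.2, 59.8, 51.0 and 44.8 CPM in SD 1 to 4. All HFD libraries lay above all SD libraries, by a narrow margin and with HFD 1 well above the others, but the change of 0.43 ± 0.20 did not pass (edgeR adjusted p = 0.103). Of 7 tested visceral depot genes edgeR and limma-voom called 0, with 2 higher and 1 lower at an unadjusted p under 0.05, and with the GC correction 1 rose, Nr2f1, a nuclear receptor of visceral cells, at 0.93 against 0.61 without it. Of 10 tested subcutaneous depot genes 1 fell, the homeobox gene Hoxc9, by 1.10 on the log2 scale, while its neighbour Hoxc10 was at 0.01.

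Of the sort markers Cd34 and Ly6a overlapped between the diets and Itgb1 rose. Cd34 had 2088, 2041, 1621, 1738 and 1907 CPM in HFD 1 to 5, against 1816, 1808, 1724 and 1513 CPM in SD 1 to 4, and the groups overlapped. Ly6a, which encodes Sca1, had 1016, 1069.9, 1173, 948 and 984 CPM in HFD 1 to 5, against 1057, 1521, 1465 and 1172 CPM in SD 1 to 4, and the groups overlapped here too. Itgb1, which encodes the integrin CD29, had 730.1, 572, 581, 808 and 801 CPM in HFD 1 to 5, against 634, 222, 312 and 239 CPM in SD 1 to 4. SD 1 lay inside the HFD range and SD 2 to 4 below it, with a log2 change of 0.99 ± 0.30 (SE, edgeR adjusted p = 0.0329) and of 0.23 with the GC correction (adjusted p = 0.247). Cd24a, which encodes CD24, ranged over 2.14 to 6.59 CPM in HFD and 0.624 to 4.66 CPM in SD. The excluded antigens were low, with Ptprc (CD45) at 0.331 to 1.36 CPM in HFD and 0.328 to 2.24 CPM in SD and Pecam1 (CD31) at 16.7 to 35.1 CPM in HFD and 21.9 to 51.6 CPM in SD.

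The summed leukocyte and endothelial markers were lower in all 5 HFD libraries than in SD 2 to 4, while SD 1 lay inside the HFD range for both. Of 19 tested leukocyte genes 3 fell, the macrophage complement genes C1qa and C1qb and the endotoxin co-receptor Cd14, where 18.8% of all tested genes fell. With the GC correction these 3 were at -0.96, -0.70 and -0.78 on the log2 scale and did not pass (adjusted p = 0.0951, 0.217 and 0.0553), and 2 others of the list fell. C1qa had 0.573, 0.545, 1.01, 0.442 and 0.502 CPM in HFD 1 to 5, against 0.831, 1.56, 3.28 and 2.79 CPM in SD 1 to 4. HFD 3 reached above SD 1, so the groups overlapped. The summed level of the leukocyte list was 29.2 to 67.3 CPM in HFD and 33.0 to 116 CPM in SD, S100a8 and S100a9 had no read, and 8 of 28 listed genes stayed under 1 CPM in all libraries. Of 16 endothelial genes 6 fell, and 1 with the GC correction, where 18.8% and 10.6% of all tested genes did. The other 10 were not called, Pecam1 among them at -0.41 on the log2 scale, and 4 of the 16 had a change above 0. The summed level of the endothelial list was 378 to 686 CPM in HFD and 556 to 1135 CPM in SD. Eng, with a mean of 316 CPM, weighed most in that sum, at a mean of 219 CPM in HFD and 438 CPM in SD. Cldn5, a tight junction protein of vessels, had 6.03, 9.04, 13, 10.5 and 13.3 CPM in HFD 1 to 5, against 12.0, 25.4, 45.6 and 35.3 CPM in SD 1 to 4, and SD 1 lay inside the HFD range. The log2 change of Cldn5 was -1.51, the lowest of the list, and with the GC correction -0.64 (adjusted p = 0.103). Against SD 1 alone the medians of these lists were above 0, at 0.39 for leukocyte and 0.32 for endothelial genes, on the log2 scale. The mesothelial list had 1 lower gene of 12. The mural list had 1 lower of 12 and the skeletal muscle list 1 lower of 5, the same gene in both. The epithelial and Schwann lists each had 1 higher and 1 lower of 5. Both edgeR and limma-voom called 0 of 5 erythroid genes (2 lower at an unadjusted p under 0.05). They also called 0 of 2 genes of the ovary and reproductive tract (0 at an unadjusted p under 0.05). The part of such cells in the results below was not tested. In bulk libraries, fewer cells of a type and less RNA per cell cannot be told apart.

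Genes of mitosis had the highest median fold change of the lists examined. Of 61 tested genes 53 rose and 1 fell, where 9.45% and 18.8% of all tested genes did. Of these, 41 rose without overlap between the groups, as 4.49% of all tested genes did, where 3.72% fell without overlap. Their median log2 fold change was 2.49, and 2.05 with the GC correction, under which 42 rose and 1 fell. Against SD 1 alone the median was 1.42. In the 9 leave-one-out fits of edgeR the median stayed between 2.11 and 3.53. There 49 to 59 of the 61 genes were higher at an adjusted p under 0.10, although 0 passed 0.05 in 6 of the fits. With limma-voom 0 of the 61 were under 0.10 without SD 2, SD 3 or SD 4, with medians of 2.82, 2.32 and 2.43. The other limma-voom fits had 47 to 57 under 0.10.

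Mki67, which encodes the proliferation antigen of cycling cells, had 38.6, 17.7, 8.96, 11.5 and 21.5 CPM in HFD 1 to 5, against 7.24, 0.858, 2.01 and 0.130 CPM in SD 1 to 4. Every HFD library lay above every SD library, SD 1 was the highest of its group and the nearest to HFD 3, and HFD 1 was the highest of all. The log2 fold change was 2.85 ± 0.76 (SE, edgeR adjusted p = 0.0244), and it was 2.49 with the GC correction (adjusted p = 0.0255). Against SD 1 alone it was 1.43. Top2a, the DNA topoisomerase that untangles chromosomes before they part, had 75.0, 53.6, 16.6, 17.5 and 41.8 CPM in HFD 1 to 5, against 14.1, 0.702, 0.298 and 1.88 CPM in SD 1 to 4. The groups did not overlap, but SD 1 was close to HFD 3 and HFD 4, while SD 2 to 4 were near 0. Top2a rose by 3.18 ± 0.89 log2 units (SE, edgeR adjusted p = 0.0268), and was at 1.53 against SD 1 alone. HFD pools differed among themselves as well, since HFD 1, HFD 2 and HFD 5 carried more of both transcripts than HFD 3 and HFD 4.

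**Figure D2:**
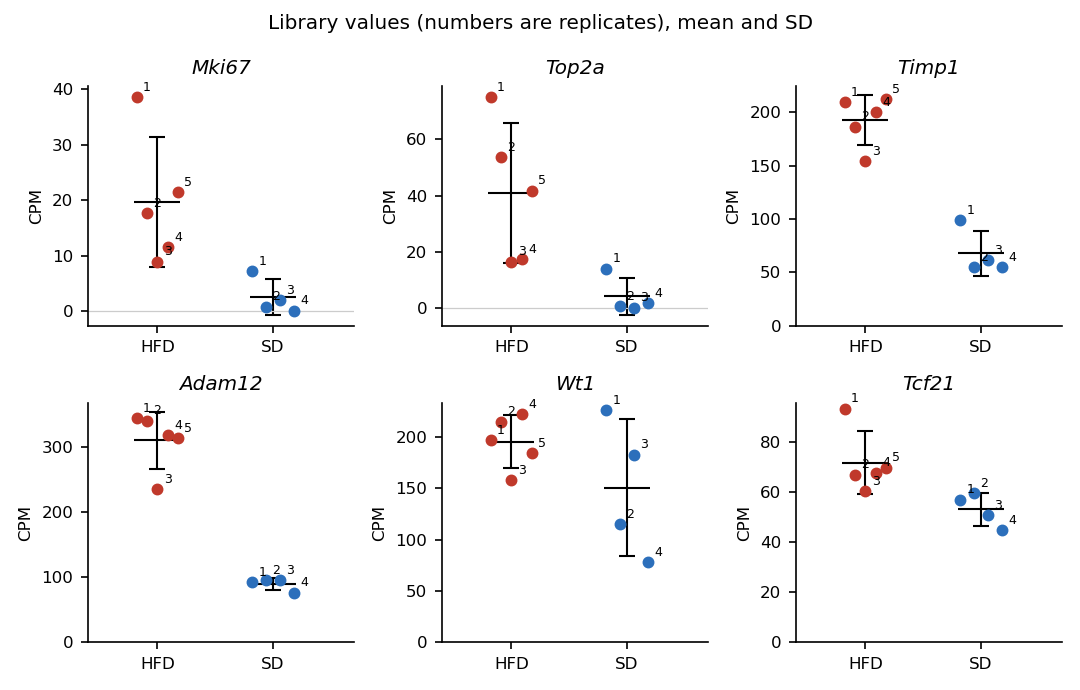
Scaled CPM of 6 genes in each library (y axis), HFD left of SD, with replicate numbers beside the points and the mean with its SD in black. Mki67, Top2a, Timp1, Adam12 and Tcf21 do not overlap between the diets, Wt1 does, and the SD libraries lie at 76.4 to 95.6 CPM for Adam12.

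All 4 roles of the mitosis list held genes that rose. Among cyclins, kinases and their regulators 18 of 21 rose, among them Ccnb2, the B-type cyclin that drives entry into mitosis, at 2.99, and the centrosome kinase Nek2 at 2.68 on the log2 scale. Nek2 had 7.69, 6.64, 2.33, 1.74 and 4.08 CPM in HFD 1 to 5, against 1.36, 0.234, 0.373 and 0.584 CPM in SD 1 to 4, without overlap. Among kinetochore and centromere genes 9 of 9 rose, with a median of 2.63. Cenpa, the histone that marks centromeres, had 6.55, 6.44, 3.86, 2.21 and 5.52 CPM in HFD 1 to 5, against 1.62, 1.56, 1.72 and 0.973 CPM in SD 1 to 4. Its SD libraries lay close together, SD 1 among them, and it rose by 1.74 ± 0.37 log2 units (SE, edgeR adjusted p = 0.0223), and by 1.90 with the GC correction. Kntc1, a kinetochore checkpoint protein, had 11.3, 8.78, 1.36, 2.46 and 5.67 CPM in HFD 1 to 5, against 1.23, 0.234, 0 and 0 CPM in SD 1 to 4, so that HFD 3 was close to SD 1.

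Of spindle motors and cytokinesis genes 16 of 19 rose, among them the chromosome-bound kinesin Kif4 at 3.13, Hmmr, a spindle assembly factor, at 3.64 and Ckap2l, a spindle protein, at 2.96. Hmmr had 9.61, 4.10, 1.80, 2.10 and 6.32 CPM in HFD 1 to 5, against 1.09, 0, 0 and 0 CPM in SD 1 to 4, so that it had no read in SD 2 to 4. Aspm, a protein of spindle poles, had 6.20, 2.89, 2.72, 1.93 and 3.63 CPM in HFD 1 to 5, against 0.744, 0.234, 0 and 0.0649 CPM in SD 1 to 4. HFD 1 was the highest and all HFD libraries exceeded SD 1. Of genes of chromosome structure and the passenger complex 10 of 12 rose, among them Birc5 at 3.11, whose product survivin guides the passenger complex. The condensin gene Smc4 rose by 1.44 log2 units and was at 0.17 with the GC correction (adjusted p = 0.684). Pbk, a mitotic kinase, rose by 2.94 log2 units and had an adjusted p of 0.0501 with the GC correction.

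Pttg1 was the single mitosis gene that fell. It encodes securin, which holds back the separation of sister chromatids. Pttg1 had 12.6, 15.3, 15.1, 13.6 and 13.4 CPM in HFD 1 to 5, against 19.8, 30.6, 30.9 and 26.7 CPM in SD 1 to 4. The HFD libraries lay close together and below all SD libraries, with SD 1 nearest to them. The log2 fold change was -0.95 ± 0.20 (SE, edgeR adjusted p = 0.0223), and it was -1.56 with the GC correction (adjusted p = 0.0114).

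**Figure D3:**
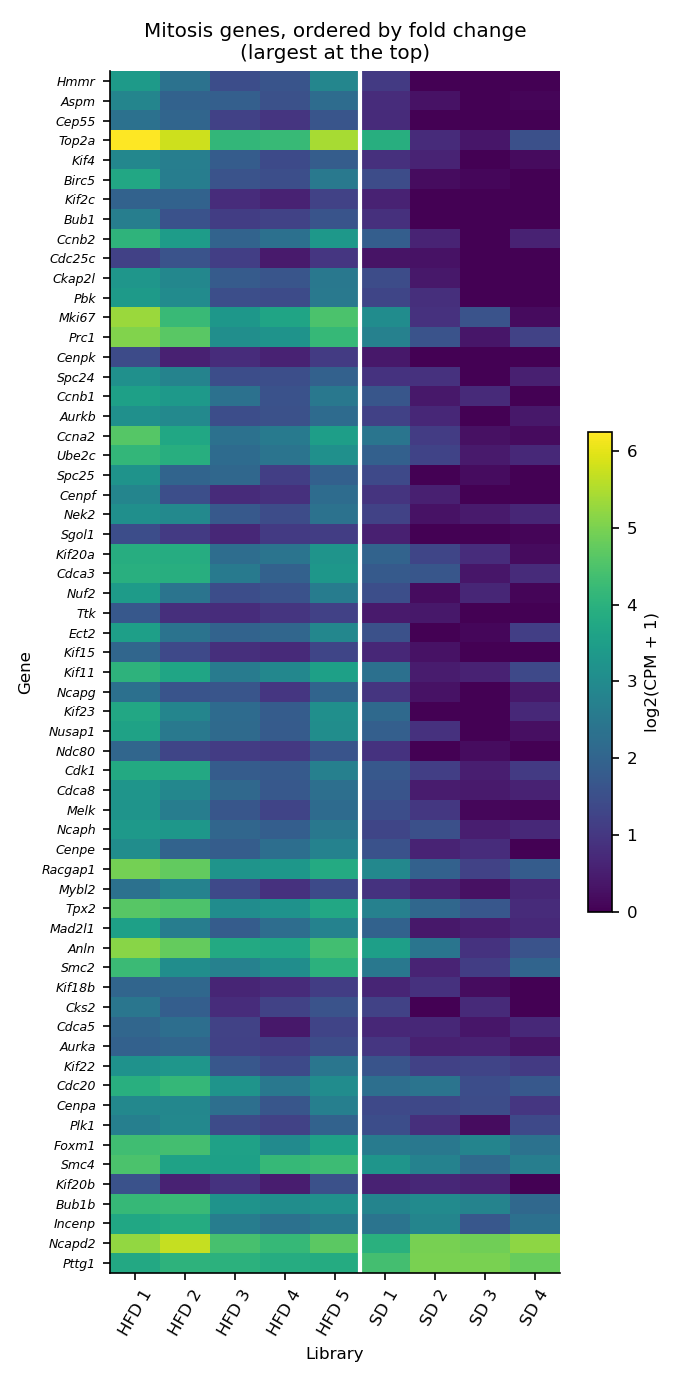
Heat map of the 61 tested mitosis genes (rows, largest fold change at the top) in the 9 libraries (columns, HFD left of SD), coloured by log2(CPM + 1). Values are highest in HFD 1, HFD 2 and HFD 5, lower in HFD 3, HFD 4 and SD 1 and near 0 in SD 2 to 4 for most rows, and Pttg1 at the bottom runs the other way.

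Promoters of these genes are shown because cell cycle genes share short elements near their start sites. Sequences are RefSeq's (GRCm38.p6), run 5′ to 3′ along the gene's strand from 250 bases before to 50 bases after the start site, and carry in capitals the CCAAT box (CCAAT, or ATTGG on the other strand), the cell cycle homology region (CHR: TTTGAA or TTCGAA, or TTCAAA on the other strand) and E2F sites (TTTNNCGC with C or G at each N, and the reverse complement). The windows are chr1:139454523-139454822, plus strand for Aspm, chr5:30666636-30666935, plus strand for Cenpa, chr11:99024140-99024439, minus strand for Top2a, chr11:43425932-43426231, minus strand for Pttg1 and chr19:38930740-38931039, plus strand for Hells, a replication gene described below.
Aspm: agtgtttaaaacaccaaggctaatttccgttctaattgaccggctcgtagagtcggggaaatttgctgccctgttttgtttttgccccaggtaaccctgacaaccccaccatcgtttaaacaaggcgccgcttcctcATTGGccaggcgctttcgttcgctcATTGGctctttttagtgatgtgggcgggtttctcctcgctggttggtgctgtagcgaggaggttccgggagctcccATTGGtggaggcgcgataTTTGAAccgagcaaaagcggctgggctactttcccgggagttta
Cenpa: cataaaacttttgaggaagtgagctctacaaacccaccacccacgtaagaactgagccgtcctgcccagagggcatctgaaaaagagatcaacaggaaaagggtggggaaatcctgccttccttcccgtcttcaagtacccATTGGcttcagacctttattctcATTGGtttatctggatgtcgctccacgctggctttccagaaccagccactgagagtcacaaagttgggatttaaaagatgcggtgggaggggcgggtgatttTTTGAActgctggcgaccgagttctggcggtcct
Top2a: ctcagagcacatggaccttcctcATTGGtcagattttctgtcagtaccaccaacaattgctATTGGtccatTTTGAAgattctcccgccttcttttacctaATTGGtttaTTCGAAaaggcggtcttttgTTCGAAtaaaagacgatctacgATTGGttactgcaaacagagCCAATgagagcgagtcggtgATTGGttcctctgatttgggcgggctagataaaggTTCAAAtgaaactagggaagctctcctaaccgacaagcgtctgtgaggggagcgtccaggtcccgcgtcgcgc
Pttg1: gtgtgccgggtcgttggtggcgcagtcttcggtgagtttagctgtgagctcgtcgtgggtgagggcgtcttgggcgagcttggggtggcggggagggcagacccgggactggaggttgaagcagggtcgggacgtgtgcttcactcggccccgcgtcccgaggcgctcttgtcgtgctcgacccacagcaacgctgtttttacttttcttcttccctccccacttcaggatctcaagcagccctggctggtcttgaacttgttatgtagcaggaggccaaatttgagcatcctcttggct
Hells: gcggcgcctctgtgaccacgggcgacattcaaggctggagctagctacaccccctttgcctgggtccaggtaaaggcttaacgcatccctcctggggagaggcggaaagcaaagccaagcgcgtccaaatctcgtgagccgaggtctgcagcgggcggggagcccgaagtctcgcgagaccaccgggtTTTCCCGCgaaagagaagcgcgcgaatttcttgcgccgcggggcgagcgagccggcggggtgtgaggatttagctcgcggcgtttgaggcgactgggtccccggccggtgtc

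Aspm held 3 CCAAT boxes and 1 CHR, Cenpa 2 and 1, and Top2a 6 and 4, while the window of Pttg1, the gene that fell, held none of the motifs and that of Hells 1 E2F site. Among windows not printed, that of Nek2, which rose, held 2 CCAAT boxes and no CHR. Of replication genes, Dbf4 held 1 CHR and Mcm10 3 CCAAT boxes, and neither held an E2F site. Positions count from 0 at the start site, and the CHR of Aspm began at position 6 and that of Cenpa at 16. Of the 50 mitosis genes with a promoter in the table, 35 (70.0%) held a CCAAT box, 37 (74.0%) a CHR and 30 (60.0%) both. Over the 9393 tested genes with a promoter these shares were 38.7%, 13.2% and 5.7%. E2F sites were in 4 mitosis promoters (8.0%), in 16 of 44 DNA replication promoters (36.4%) and in 4.1% of all tested. These matches describe letters and not binding. The windows were read from another build than the mm9 build on which reads were counted, and only the first listed start site of each gene was used.

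Genes of DNA replication copy the genome before mitosis. Of 51 tested genes 12 rose and 1 fell, with a median log2 fold change of 0.69 and of 0.41 with the GC correction, under which 8 rose. Against SD 1 alone the median was 0.47. Dbf4, the activator of the kinase that fires origins, had 5.05, 3.40, 3.56, 3.09 and 3.43 CPM in HFD 1 to 5, against 1.77, 0.546, 0.224 and 0.714 CPM in SD 1 to 4, without overlap, and rose by 2.07 ± 0.47 log2 units (SE, edgeR adjusted p = 0.0223). Mcm10, which loads polymerase at origins, had 2.89, 3.98, 1.89, 0.883 and 1.54 CPM in HFD 1 to 5, against 0.613, 0.312, 0 and 0.389 CPM in SD 1 to 4, so that HFD 4 lay close to SD 1. Pole, the catalytic subunit of the leading-strand polymerase, had 14.3, 11.2, 3.86, 3.89 and 6.08 CPM in HFD 1 to 5, against 2.78, 1.79, 1.12 and 2.08 CPM in SD 1 to 4, without overlap. Hells, a chromatin remodeller of S phase, rose by 1.78 on the log2 scale, and was at 1.01 with the GC correction (adjusted p = 0.134). Whether the replication and mitosis lists differ was not tested.

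Regulators upstream of S phase were mixed. Of 14 D cyclins, CDK inhibitors and pocket proteins 3 rose and 2 fell, and with the GC correction 1 rose and 1 fell. Ccnd3, cyclin D3, had 112, 149, 139.5, 108 and 113 CPM in HFD 1 to 5, against 141, 358, 353 and 354 CPM in SD 1 to 4. SD 1 lay inside the HFD range and SD 2 to 4 above it, and the fall of -1.28 on the log2 scale was -0.55 with the GC correction. The CDK inhibitors Cdkn1b (p27) and Cdkn2c (p18) rose by 0.93 and 1.38 log2 units, of which Cdkn1b was at 0.07 and Cdkn2c at 1.34 with the GC correction. Rbl1, the pocket protein p107, rose by 1.36 log2 units, and was at 0.59 with the GC correction (adjusted p = 0.162).

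Adam12 had the smallest adjusted p of all tested genes, both without and with the GC correction. It encodes a membrane metalloproteinase disintegrin that is expressed by mesenchymal progenitors and cleaves growth factor binding proteins. Adam12 had 343, 339.9, 234, 317 and 313 CPM in HFD 1 to 5, against 92.8, 95.6, 95.0 and 76.4 CPM in SD 1 to 4. The SD libraries lay close together, SD 1 among them, and the lowest HFD library, HFD 3 at 234 CPM, was far above the highest SD library, SD 2 at 95.6 CPM. The log2 fold change was 1.78 ± 0.19 (SE, edgeR adjusted p = 0.00549), 1.79 with the GC correction (adjusted p = 0.000291) and 1.74 against SD 1 alone. Adam12 was called in 8 of 9 leave-one-out fits, the exception being that without SD 3, and in 9 of 9 with the GC correction, with fold changes of 1.72 to 1.87 without it.

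The collagens and other genes of the extracellular matrix are the scaffold of the depot. Of 71 tested matrix genes 23 rose and 4 fell, with a median log2 fold change of 0.46. With the GC correction 27 rose and 4 fell with a median of 0.59, and against SD 1 alone the median was 0.40. Of all tested genes 4.82% rose and 10.6% fell with that correction. Of 10 fibrillar collagens 7 rose, each of them without overlap, with a median of 0.90, and 7 rose with the GC correction. Of all tested genes 4.49% rose without overlap. Of 12 fibril-associated, beaded and transmembrane collagens 2 rose, and with the GC correction 6 rose and 1 fell. For the fibrillar collagens the medians were 1.08 with that correction and 0.81 against SD 1 alone.

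Col1a1, a chain of type I collagen and the main fibre protein of connective tissue, had 9457, 12445, 10974, 11716 and 13854 CPM in HFD 1 to 5, against 5365, 5736, 3719 and 4236 CPM in SD 1 to 4. The lowest HFD library lay well above the highest SD library, and SD 1 was not the highest of its group. Col1a1 rose by 1.29 ± 0.21 log2 units (SE, edgeR adjusted p = 0.0223), and by 1.64 with the GC correction (adjusted p = 0.00949). Its partner chain Col1a2 rose by 1.05 log2 units, and was at 0.50 with the correction. Col3a1, of type III collagen, had 27065, 23815, 18098, 23780.1 and 30656 CPM in HFD 1 to 5, against 13604, 4228, 3795 and 3895 CPM in SD 1 to 4, so that SD 1 lay between the other SD libraries and HFD. Col5a1 and Col5a2, chains of the type V collagen that starts fibrils, rose by 0.68 and 1.45 log2 units. Col5a2 had 1488, 1901, 1526, 1736 and 2019.6 CPM in HFD 1 to 5, against 994, 555, 580.4 and 408 CPM in SD 1 to 4, without overlap. Col24a1, a minor fibrillar collagen, rose by 3.83 log2 units from few reads, with 0.442 to 2.99 CPM in HFD and 0 to 0.324 CPM in SD.

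Among 23 basement membrane genes 7 rose and 1 fell. Col15a1, a collagen that ties basement membranes to fibres and marks committed preadipocytes, had 2014, 2393, 1787, 2057 and 2385 CPM in HFD 1 to 5, against 1079, 941, 938 and 1041 CPM in SD 1 to 4. SD 1 to 4 differed little, every HFD library was above all of them, and the log2 change of 1.09 ± 0.18 (SE, edgeR adjusted p = 0.0223) was 1.51 with the GC correction. The type IV collagen genes Col4a1 and Col4a5 rose by 0.83 and 1.28 log2 units, and by 1.28 and 1.11 with the correction. Col6a3, of the beaded type VI collagen of fat, had 4769, 4435, 3097, 3520.0 and 4578 CPM in HFD 1 to 5, against 1959, 1768, 1590.0 and 2126 CPM in SD 1 to 4, without overlap. Of 26 glycoproteins and elastic fibre genes 7 rose and 3 fell. Tnc, tenascin-C of growing and wounded tissue, rose by 1.81 ± 0.39 log2 units and had 9.36, 9.43, 11.6, 13.1 and 23.0 CPM in HFD 1 to 5, against 6.85, 2.34, 2.76 and 2.86 CPM in SD 1 to 4, without overlap. Vcan (versican) and Postn (periostin) rose by 1.92 and 1.37 log2 units, but SD 1 lay inside the HFD range for both, at 334 and 1951 CPM, and Postn was at 0.57 with the GC correction (adjusted p = 0.0743). Fbln1 (fibulin-1) fell by 1.40 log2 units, with SD 1 inside the HFD range as well.

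Collagen is modified, trimmed and cross-linked by enzymes of which 5 of 24 rose and 1 fell. With the GC correction 10 rose and 1 fell, where 4.82% and 10.6% of all tested genes did. P4ha3, a subunit of the prolyl hydroxylase that stabilises the triple helix, had 54.8, 33.3, 12.1, 19.5 and 36.7 CPM in HFD 1 to 5, against 5.40, 2.42, 1.27 and 7.79 CPM in SD 1 to 4. The groups did not overlap, and SD 4 was the highest SD library. P4ha3 rose by 2.87 ± 0.54 log2 units (SE, edgeR adjusted p = 0.0223), and by 3.17 with the GC correction. Plod2, the lysyl hydroxylase of fibrillar cross-links, had 438, 262, 122, 232 and 289.9 CPM in HFD 1 to 5, against 96.6, 40.3, 42.1 and 56.1 CPM in SD 1 to 4, and rose by 2.19 log2 units, or 1.22 with the correction. Adamts3, which trims procollagen, rose by 1.45 log2 units. Loxl1, an elastin cross-linking oxidase, fell by 0.83 log2 units, and was at -0.04 with the correction (adjusted p = 0.862).

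Of 27 matrix proteases and their inhibitors 8 rose and 5 fell, where 9.45% and 18.8% of all tested genes did. Timp1, an inhibitor of metalloproteinases, had 209, 186, 154, 200.1 and 212 CPM in HFD 1 to 5, against 99.2, 55.0, 61.9 and 55.0 CPM in SD 1 to 4. The HFD libraries were all above SD 1, which itself stood above SD 2 to 4. Timp1 rose by 1.5 ± 0.23 log2 units (SE, edgeR adjusted p = 0.0223), by 1.62 with the GC correction and by 0.96 against SD 1 alone. Mmp11, stromelysin-3, had 15.8, 33.4, 50.1, 18 and 18.7 CPM in HFD 1 to 5, against 46.7, 184, 122 and 73.5 CPM in SD 1 to 4. HFD 3 reached SD 1, so the groups overlapped, and the gene fell by 1.97 log2 units, and was at -1.48 with the GC correction (adjusted p = 0.0195). Serpinf1, the antiangiogenic serpin PEDF, fell by 0.91 log2 units, and was at -0.28 with the correction (adjusted p = 0.192).

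Of 67 growth factor genes 13 rose and 9 fell, where 9.45% and 18.8% of all tested genes did, with a median against SD 1 alone of -0.01. Among ligands, Tgfb2, a transforming growth factor beta, had 94.4, 71.0, 67.3, 79.2 and 119 CPM in HFD 1 to 5, against 55.8, 30.0, 25.7 and 22.7 CPM in SD 1 to 4, without overlap, and rose by 1.36 ± 0.29 log2 units (SE, edgeR adjusted p = 0.0223). Hgf, the hepatocyte growth factor of mesenchymal cells, had 18, 10.5, 11.7, 19.9 and 21.7 CPM in HFD 1 to 5, against 9.39, 4.06, 3.28 and 3.83 CPM in SD 1 to 4, and SD 1 was close to HFD 2. Among receptors, Egfr had 463, 421, 364, 492 and 462 CPM in HFD 1 to 5, against 289.8, 229.6, 279 and 243 CPM in SD 1 to 4, without overlap, and rose by 0.76 ± 0.18 log2 units (SE, edgeR adjusted p = 0.0223). Pdgfra, the receptor that marks precursors, was at 0.33 (edgeR adjusted p = 0.197) and overlapped, while Pdgfrb, the receptor of mural-side precursors, fell by 0.85 log2 units, and was at -0.38 with the GC correction (adjusted p = 0.132).

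Of 25 genes of insulin, PI3K and AKT signalling 4 rose and 5 fell, where 9.45% and 18.8% of all tested genes did. Akt1 and Akt2, the kinases of that pathway, fell by 0.94 and 0.94 log2 units. Akt1 had 238, 262, 222, 198 and 205 CPM in HFD 1 to 5, against 258, 511, 483 and 472 CPM in SD 1 to 4, so that SD 1 lay inside the HFD range, and with the GC correction Akt1 was at -0.15 and Akt2 at -0.49. Phlda3, a repressor of AKT, fell by 1.73 log2 units, and was at -0.96 with the correction. Of 24 Wnt genes 3 rose and 4 fell, beside the same shares of all tested genes. The ligand Wnt11 had 27.6, 41.9, 36.4, 33.6 and 27.9 CPM in HFD 1 to 5, against 61.9, 118, 112 and 65.5 CPM in SD 1 to 4. SD 1 was the lowest of its group and still above all HFD libraries. Wnt11 fell by 1.41 ± 0.25 log2 units (SE, edgeR adjusted p = 0.0223), and was at -0.65 with the GC correction, and Wnt5b fell by 1.25 log2 units without overlap. The co-receptor Lrp6 rose by 0.87 log2 units and was at 0.15 with the correction.

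Frzb, a secreted antagonist that binds Wnt ligands, was the single gene for which the test called a different response to diet in the depots. Frzb had 38.7, 21.3, 14.5, 22 and 30.5 CPM in HFD 1 to 5, against 11.7, 8.90, 6.41 and 6.16 CPM in SD 1 to 4. All HFD libraries were above all SD libraries, and the log2 fold change was 1.61 ± 0.32 (SE, edgeR adjusted p = 0.0223). In subcutaneous precursors of the same gate it averaged 0.285 ± 0.10 CPM in HFD and 0.882 ± 0.457 CPM in SD (SD, n = 5 and 4), a change of -1.69 (edgeR adjusted p = 0.0529). The interaction of diet with depot over 18 libraries was 3.27 ± 0.52 for Frzb (SE, edgeR adjusted p = 0.0439), the 1 gene called of 14360 tested (0.00696%), with 438 at an unadjusted p under 0.05. limma-voom called 0 and edgeR with all 20 libraries called 0. The mitosis median was 2.49 in visceral precursors by the 9-library fit and 2.70 in subcutaneous precursors by the 18-library fit, where 14 of its genes rose. Adam12 was at 1.78 and at 1.32 in the same fits. In the subcutaneous comparison 51 genes (0.355%) rose and 41 (0.286%) fell.

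Of 27 transcription factors of adipogenesis 1 rose and 8 fell, where 9.45% of all tested genes rose and 18.8% fell, and with the GC correction 2 rose and 1 fell. Pparg, the master regulator, had 6.35, 7.21, 11.1, 8.78 and 10.2 CPM in HFD 1 to 5, against 5.89, 11.8, 4.70 and 7.98 CPM in SD 1 to 4, with overlap and no change past the threshold (log2 fold change 0.20 ± 0.30, edgeR adjusted p = 0.597). Cebpa, its partner, had 26.2, 37.8, 31.3, 30.1 and 22.8 CPM in HFD 1 to 5, against 27.7, 144, 100.2 and 75.6 CPM in SD 1 to 4. SD 1 lay inside the HFD range and SD 2 to 4 far above it, and the fall of -1.55 was -0.64 with the correction (adjusted p = 0.0615). Srebf1, a lipogenic factor, fell by 1.03 log2 units, and was at -0.20 with the correction (adjusted p = 0.337). Klf2, a repressor, and Zfp467, an inducer, fell by 1.69 and 1.49 log2 units, with SD 1 inside the HFD range for both. With the correction Klf2 was at -0.82 and Zfp467 at -0.72, and neither passed (adjusted p = 0.0585 and 0.0799). Dlk1, the precursor antigen that restrains adipogenesis, had 1.79, 3.85, 4.92, 3.64 and 3.16 CPM in HFD 1 to 5, against 7.55, 6.79, 5.0 and 5.65 CPM in SD 1 to 4, without overlap, at -0.85 ± 0.30 (edgeR adjusted p = 0.0504).

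Genes of fat storage and handling fell in 14 of 37 cases and rose in 4. Their median was -0.67, -0.25 with the GC correction and 0.09 against SD 1 alone. Lpl, the lipase that takes up fatty acids from lipoproteins, rose. It had 776, 1113, 1331, 1606 and 1163 CPM in HFD 1 to 5, against 619.6, 391, 595 and 357 CPM in SD 1 to 4, without overlap, and a log2 change of 1.29 ± 0.26 (SE, edgeR adjusted p = 0.0223), or 0.75 with the correction. Elovl6, a fatty acid elongase, had 35.7, 21.4, 27.1, 35.1 and 35.5 CPM in HFD 1 to 5, against 18.8, 9.44, 8.50 and 11.6 CPM in SD 1 to 4, without overlap. Cfd, the adipocyte product adipsin, fell by 2.44 log2 units at low levels, 0.124 to 0.266 CPM in HFD and 0.394 to 1.64 CPM in SD. The droplet coat gene Plin3 fell by 0.94 log2 units without overlap, while for Plin2, another coat gene, for the lipase Lipe and for Agpat2, an enzyme of triglyceride synthesis, SD 1 lay inside the HFD range. With the correction 9 genes of the list fell and 2 rose, and Lipe was at -0.92 (adjusted p = 0.0771). The mature adipocyte list summed to 3.29 to 7.6 CPM in HFD and 1.99 to 8.69 CPM in SD.

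Of 24 genes of cholesterol synthesis and uptake 9 rose and 4 fell. Cyp51, a demethylase of the pathway, had 69.7, 48.0, 56.9, 93.4 and 74.7 CPM in HFD 1 to 5, against 43.7, 14.8, 24.7 and 20.9 CPM in SD 1 to 4. All HFD libraries lay above SD 1, the highest of its group and close to HFD 2. Cyp51 rose by 1.39 ± 0.31 log2 units (SE, edgeR adjusted p = 0.0223), and was at 0.85 with the GC correction. Insig1, the sterol sensor that holds back this pathway, rose by 1.17 log2 units, and was at 0.44 with the GC correction (adjusted p = 0.0932). Ebp, a sterol isomerase, fell by 0.90 log2 units. Against SD 1 alone the list's median was 0.34. Of 9 liver X receptor genes 5 fell and 1 rose, among them the receptors Nr1h2 and Nr1h3 at -1.42 and -1.25 and the phospholipid transfer protein Pltp at -1.97. With the GC correction 2 genes of the list fell, and Nr1h3 was at -0.60 (adjusted p = 0.0653). For Nr1h2, Nr1h3 and Pltp SD 1 lay inside the HFD range.

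**Figure D4:**
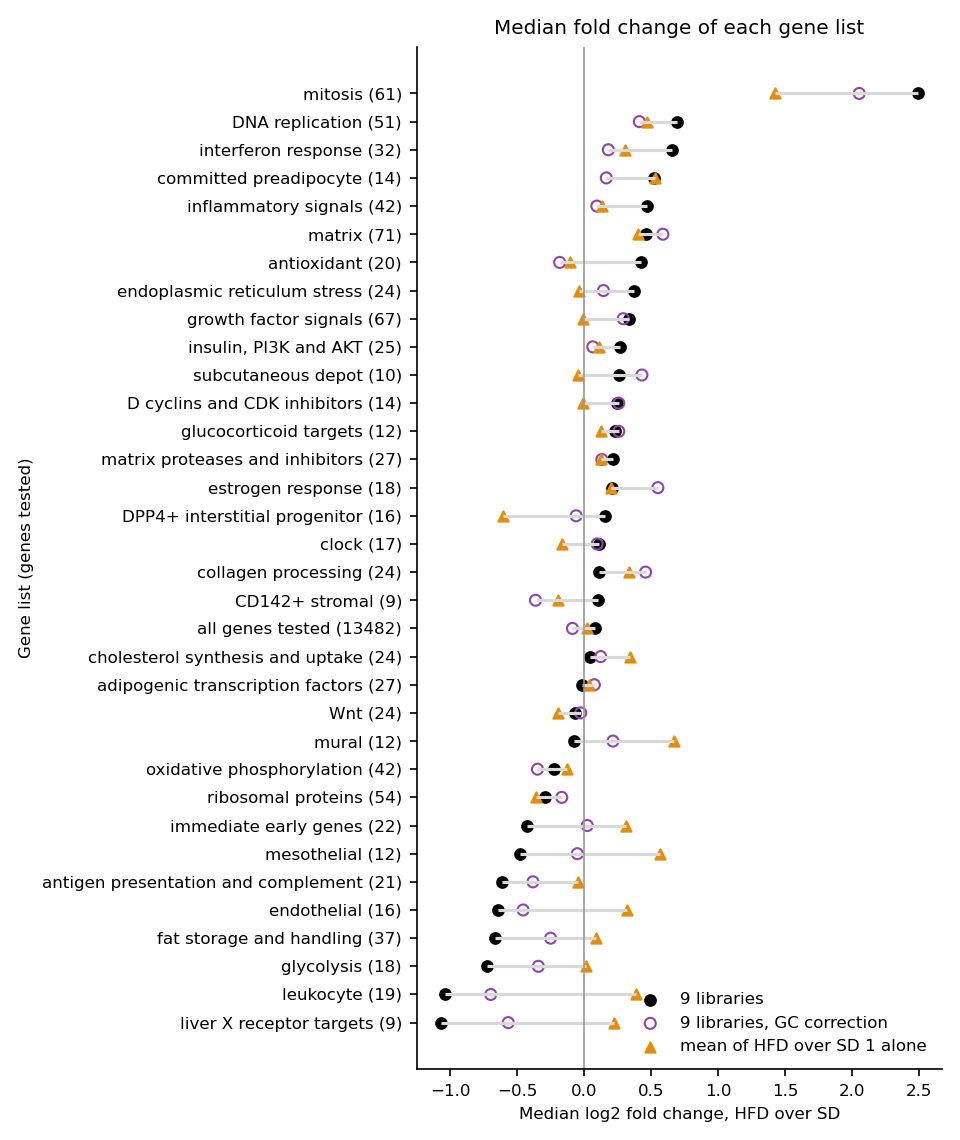
Median log2 fold change (x axis, HFD over SD) of each gene list with at least 9 tested genes (y axis, number tested in brackets) in the fit of 9 libraries (filled circle), with the GC correction (open circle) and for the HFD mean over SD 1 alone (triangle). Mitosis lies apart at 2.49, 2.05 and 1.42, while leukocyte, endothelial, fat storage and liver X receptor lists are below 0 in the fits and above 0 against SD 1 alone.

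Inflammatory signals rose in 10 of 42 genes and fell in 2, with a median of 0.47, or 0.09 with the GC correction, under which 6 rose and 1 fell. Cxcl10, a chemokine induced by interferon, had 357, 349.7, 318, 398 and 325 CPM in HFD 1 to 5, against 121, 176, 121 and 94.2 CPM in SD 1 to 4. HFD libraries were close together and all above every SD library, of which SD 2 and not SD 1 was the highest. Cxcl10 rose by 1.45 ± 0.21 log2 units (SE, edgeR adjusted p = 0.0223), by 1.17 with the GC correction and by 1.53 against SD 1 alone. It was called in 4 of 9 leave-one-out fits, and in 8 of 9 with the GC correction. Cxcl9, its relative, had 37.3, 48.7, 33.3, 44.9 and 40.4 CPM in HFD 1 to 5, against 19.4, 11.3, 10.3 and 7.59 CPM in SD 1 to 4, without overlap. Il1r1, the receptor of interleukin-1, had 269, 229, 175, 288 and 246 CPM in HFD 1 to 5, against 156, 75.2, 96.5 and 63.5 CPM in SD 1 to 4, without overlap, and rose by 1.30 log2 units. Vcam1, an adhesion molecule for leukocytes, rose by 1.13 log2 units and was at 0.08 with the correction (adjusted p = 0.844).

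Of 32 interferon response genes 11 rose and 2 fell, and with the GC correction 4 rose. Trim25, a ubiquitin ligase of RNA sensing, had 70.1, 82.7, 68.2, 91.2 and 66.3 CPM in HFD 1 to 5, against 44.9, 44.2, 42.1 and 21.7 CPM in SD 1 to 4, without overlap, and rose by 0.99 log2 units, or 0.99 with the correction. The guanylate-binding protein Gbp3 rose by 1.25 log2 units, and Ifit1, an RNA-binding effector, by 1.42, or 0.42 with the correction (adjusted p = 0.433). Ifi35 fell by 1.04 log2 units, and was at -0.50 with the correction (adjusted p = 0.0641). Of 21 genes of antigen presentation and complement 9 fell and 1 rose. Leukocytes express many of these genes. The summed leukocyte markers were 29.2 to 67.3 CPM in HFD and 33.0 to 116 CPM in SD. They were lower in all 5 HFD libraries than in SD 2 to 4, with SD 1 inside the HFD range. The part of leukocytes in these calls was not tested. C3, the central complement protein, had 8705, 12669.5, 13925, 12840.3 and 10389.9 CPM in HFD 1 to 5, against 14448, 27844, 29010.0 and 21613 CPM in SD 1 to 4. SD 1 was the lowest of its group and close to HFD 3. C3 fell by 0.99 ± 0.24 log2 units (SE, edgeR adjusted p = 0.0223), and was at -0.92 with the GC correction. Serping1, the inhibitor of complement C1, fell by 0.87 log2 units. The immunoproteasome subunits Psmb8 and Psmb10 fell by 1.01 and 1.33 log2 units, and all 3 genes fell without overlap. Under the GC correction 4 genes of the list fell, and Psmb8 was at -0.59 (adjusted p = 0.0516). Cfi, complement factor I, rose by 2.97 log2 units from a few reads, with 0.224 to 2.12 CPM in HFD and 0 to 0.224 CPM in SD, and was at 2.56 with the GC correction (adjusted p = 0.0599).

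Markers of precursor states were examined next. Of 16 markers of DPP4+ interstitial progenitors, an early state of the lineage, 4 fell, each without overlap. Of all tested genes 18.8% fell, and 3.72% fell without overlap. At an unadjusted p under 0.05 in edgeR 4 of the 16 markers were higher, and limma-voom called 3 of 16 higher. Pi16 had 1351, 2174, 2790.0, 2023 and 1567 CPM in HFD 1 to 5, against 3303, 6519, 7269 and 4582 CPM in SD 1 to 4. SD 1 was the lowest of its group and above HFD 3, the highest HFD library. Pi16 fell by 1.45 ± 0.27 log2 units (SE, edgeR adjusted p = 0.0223), and was at -0.80 with the GC correction and at -0.74 against SD 1 alone. Dact2, a modulator of Wnt and transforming growth factor signalling, had 11.1, 27.9, 29.4, 13.6 and 9.98 CPM in HFD 1 to 5, against 56.8, 82.9, 75.0 and 95.4 CPM in SD 1 to 4, a clear gap between the groups, and the change of -2.08 ± 0.34 was the lowest value among the lower genes named by size. The deubiquitinase Uchl1 and the ligand Bmp7 fell by 1.36 and 0.73 log2 units, of which Bmp7 was at -0.22 with the correction (adjusted p = 0.608). The list's median was 0.16, and -0.61 against SD 1 alone.

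Of 14 committed preadipocyte markers 4 rose, among them Lpl, Col4a1 and Col15a1, and 1 fell, Plin2. Of 9 markers of CD142+ stromal cells 1 rose and 2 fell. F3, which encodes CD142 itself, rose by 0.99 log2 units with SD 1 inside the HFD range, and was at 0.49 with the GC correction. Mgp, matrix Gla protein, had 418, 518, 732, 568 and 561 CPM in HFD 1 to 5, against 1040.3, 901, 788 and 797 CPM in SD 1 to 4, without overlap and with SD 1 the highest, and fell by 0.66 ± 0.20 log2 units (SE, edgeR adjusted p = 0.0314). Cygb, cytoglobin, fell by 1.26 log2 units without overlap, and Clec11a, a secreted growth factor of stromal cells, was at 0.47 ± 0.18 (edgeR adjusted p = 0.0577).

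Further genes stood out by size among those without overlap. Of the higher genes Chl1, a neural cell adhesion molecule, had 12.0, 4.36, 1.01, 2.18 and 4.28 CPM in HFD 1 to 5, against 0.569, 0.234, 0.149 and 0.130 CPM in SD 1 to 4, with HFD 1 far above the others. Agtr2, the type 2 receptor of angiotensin, had 13, 7.12, 6.89, 12.0 and 16.2 CPM in HFD 1 to 5, against 2.19, 0.234, 1.04 and 1.69 CPM in SD 1 to 4. All HFD libraries were at least 6.89 CPM where no SD library passed 2.19 CPM, and Agtr2 rose by 3.03 ± 0.49 log2 units (SE, edgeR adjusted p = 0.0223), or 2.04 with the GC correction. Of the lower genes Tgfbi, an adhesive matrix protein induced by transforming growth factor beta, had 51.2, 119, 192, 149.8 and 90.2 CPM in HFD 1 to 5, against 341, 478, 515 and 512 CPM in SD 1 to 4. Even HFD 3 stayed well below SD 1, and Tgfbi fell by 1.94 ± 0.32 log2 units (SE, edgeR adjusted p = 0.0223), and was at -1.76 with the correction. Myoc, myocilin, had 35.7, 174, 282, 131 and 118 CPM in HFD 1 to 5, against 529.9, 364, 677 and 728 CPM in SD 1 to 4, with a wide spread in HFD and no overlap. Cyp26b1, which breaks down retinoic acid, had 3.24, 5.23, 4.08, 2.40 and 2.10 CPM in HFD 1 to 5, against 14.9, 10.4, 6.56 and 21.9 CPM in SD 1 to 4, without overlap.

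The other lower genes of that selection were the kinase Mapk13, the Polycomb protein Cbx7, the homeobox factor Pitx1, the lipid carrier Pctp, the tubulin Tubb4, the zinc finger protein Zfp385a, the ubiquitin ligase subunit Fbxo31 and the tRNA methyltransferase subunit Trmt61a. Their log2 fold changes were between -2.04 and -1.75, and between -2.27 and -0.91 with the GC correction. Zfp385a had 122, 255, 286, 158 and 133 CPM in HFD 1 to 5, against 286, 761, 749 and 762 CPM in SD 1 to 4. SD 1 and HFD 3 were almost equal, and SD 2 to 4 were far above both. Trmt61a was of the same kind, with SD 1 at 6.52 CPM and HFD 1 at 6.45 CPM. Mapk13 and Pctp kept a clear gap between SD 1 and the highest HFD library, 3.41 against 1.93 CPM and 2.30 against 1.32 CPM.

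Genes of energy supply and of ribosomes fell or did not pass in the fit of 9 libraries. Of 42 nuclear genes of oxidative phosphorylation 13 fell, 3 of them without overlap, and 14 fell with the GC correction. Among all tested genes these shares were 18.8%, 3.72% and 10.6%. In edgeR or limma-voom 0 of the 42 rose, with 5 higher at an unadjusted p under 0.05. The median was -0.23, and -0.13 against SD 1 alone. Cox4i1, of cytochrome c oxidase, had 169, 162, 164, 135 and 147 CPM in HFD 1 to 5, against 187, 457, 391 and 328 CPM in SD 1 to 4, and SD 1 was close to the HFD range. Ndufb10 and Ndufs7, of complex I, fell by 0.85 and 1.33 log2 units. Of 18 glycolysis genes 8 fell, with a median of -0.73, or 0.02 against SD 1 alone. Slc16a3, the lactate exporter, fell by 1.27 log2 units without overlap, and was at -0.58 with the GC correction (adjusted p = 0.0505). For Tpi1, an enzyme of the pathway, SD 1 lay inside the HFD range.

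Of 54 ribosomal protein genes 14 fell, 9 of them without overlap, and 14 fell with the GC correction. Of all tested genes 18.8% fell, 3.72% fell without overlap and 10.6% fell with the GC correction. No gene of the ribosomal list rose in edgeR or limma-voom, and 0 were higher at an unadjusted p under 0.05. Rps14 had 683, 623, 605, 493 and 539 CPM in HFD 1 to 5, against 808, 2409.9, 2041 and 1676 CPM in SD 1 to 4. SD 1 was much closer to HFD than to SD 2 to 4, and Rps14 fell by 1.56 ± 0.27 log2 units (SE, edgeR adjusted p = 0.0223), and was at -0.46 against SD 1 alone. Rpl19 fell by 1.02 log2 units, also without overlap. The medians of the list were -0.29, -0.17 with the GC correction and -0.36 against SD 1 alone. Those of all tested genes were 0.08, -0.09 and 0.02. For the large subunit they were -0.10, -0.09 and -0.34, and 19 of the 54 genes were above 0 in the fit of 9 libraries. Ribosomal protein genes have many processed copies in the genome, which makes their counts uncertain.

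**Figure D5:**
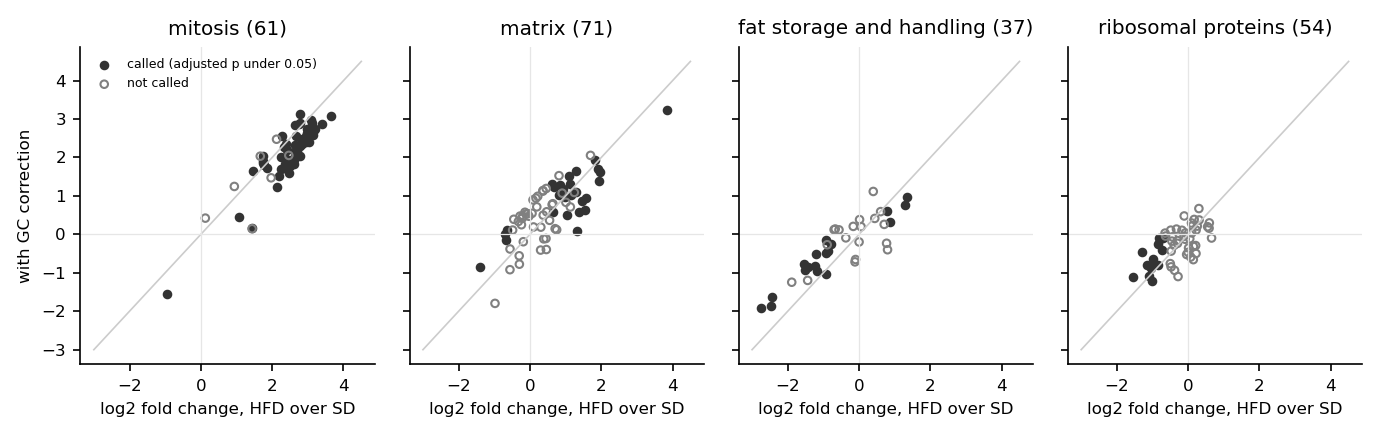
Log2 fold change of each tested gene of 4 lists, HFD over SD, in the fit of 9 libraries (x axis) and with the GC correction (y axis), with filled points past an adjusted p of 0.05 without the correction and a grey diagonal where both are equal. Most mitosis genes lie high on both axes, with Pttg1 below 0 and Smc4 near 0 with the correction, and many matrix genes lie above the diagonal. Most fat storage and ribosomal protein genes called lower lie nearer to 0 with the correction, with Plin2 and Rpl19 as exceptions.

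Among antioxidant genes 7 of 20 fell and 3 rose. Hmox1, heme oxygenase, had 1100.3, 1489, 1583, 2104 and 1591 CPM in HFD 1 to 5, against 678, 836, 968 and 578 CPM in SD 1 to 4, without overlap and with SD 3 the highest SD library, and rose by 1.04 ± 0.23 log2 units (SE, edgeR adjusted p = 0.0223), or 1.32 with the GC correction. Gsta3, a glutathione transferase, had 2.99, 2.15, 3.03, 3.53 and 3.84 CPM in HFD 1 to 5, against 7.33, 7.49, 9.25 and 6.49 CPM in SD 1 to 4. SD 1 was among the other SD libraries, and Gsta3 fell by 1.29 ± 0.25 log2 units (SE, edgeR adjusted p = 0.0223), and was at -2.15 with the correction. Gstm1, another transferase, fell by 1.60 log2 units without overlap, and Gpx3, the secreted glutathione peroxidase, fell by 1.87 log2 units with SD 1 inside the HFD range.

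Hormone and stress lists held calls in both directions, where 9.45% of all tested genes rose and 18.8% fell. Of 18 estrogen response genes 5 rose and 3 fell, and all 8 overlapped between the groups. Esr1, the estrogen receptor, had 107, 92.7, 106, 136 and 158 CPM in HFD 1 to 5, against 105, 34.3, 47.4 and 67.0 CPM in SD 1 to 4. SD 1 lay inside the HFD range, and the log2 fold change was 0.91 ± 0.31 (SE, edgeR adjusted p = 0.043), or 0.60 with the GC correction (adjusted p = 0.0738). Its targets Pgr, the progesterone receptor, and Greb1 were highest in HFD 1. Greb1 had 39.7, 24.6, 10.2, 19.4 and 23.6 CPM in HFD 1 to 5, against 7.18, 4.84, 6.49 and 19.0 CPM in SD 1 to 4, with SD 4 inside the HFD range, and rose by 1.33 log2 units, while Pgr was at 1.27 ± 0.63 (edgeR adjusted p = 0.126). The list also held Cyp1b1 and Fhl2, which rose by 0.98 and 1.33 log2 units, and the protease Ctsd, which fell by 1.13 log2 units.

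Of 22 immediate early genes 3 rose and 4 fell, where 9.45% and 18.8% of all tested genes did, the background also of the lists that follow. Klf6, a zinc finger factor, had 480.0, 444, 483, 541 and 468 CPM in HFD 1 to 5, against 367, 248, 243 and 245 CPM in SD 1 to 4, without overlap, and the AP-1 genes Jund and Junb fell by 1.32 and 1.18 log2 units with SD 1 inside the HFD range for both. Corrected for GC content, Klf6 was at 0.30 (adjusted p = 0.12) and Junb at -0.32 (adjusted p = 0.19). Of 24 genes of endoplasmic reticulum stress 3 rose, among them the folding enzyme Pdia4 at 0.96, and 1 fell, the pseudokinase Trib3 at -0.78. Trib3 was at -0.01 with the GC correction (adjusted p = 0.973), and 1 gene of the list rose and 1 fell. Of 17 clock genes 1 rose and 4 fell, among them the output factors Tef at -1.23 and Dbp at -1.45, both without overlap. Dbp was at -0.96 with the GC correction (adjusted p = 0.0724), and 2 clock genes fell. Of 12 glucocorticoid targets 1 rose, the kinase Sgk1 at 0.68, and 1 fell, Cebpd, an early adipogenic factor, at -0.70. Sgk1 was at 0.26 with the GC correction (adjusted p = 0.22).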

How the data were processed

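The authors deposited whole-number read counts per gene, not normalized. The submitters' processing notes name TopHat, HTSeq and the mm9 mouse genome, without versions. Per the labels' protocols, stranded dUTP libraries were sequenced from 1 end to 75 bases. The strand setting of the counting is not given in the sources used here, so genes overlapped by another on the other strand, or with near-identical copies, are uncertain.

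Of 33929 rows, 5 HTSeq summary rows (23.8% to 36.8% of reads in the 9 libraries) and 25 rows named by calendar dates (0.0648% to 0.132%) were left out, which leaves 33899 genes. No pair of libraries of the same group agreed within sampling noise (chi-square per degree of freedom 21.7 to 409). Depth on genes was 15.0 to 42.3 M reads per library.

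Differences between the diets come from edgeR 4.0.16 in R 4.3.3, fitted to the counts of the 9 libraries: expression filter, TMM scaling and the quasi-likelihood test (robust), with Benjamini-Hochberg adjustment over all 13482 genes and a threshold of 0.05. Many genes share an adjusted p of 0.0223 because the adjustment ties neighbouring ranks. The SE was taken as the size of the log2 fold change over the root of F. The GC correction adds an offset per gene and library from a natural spline (5 degrees of freedom) on the GC content of GENCODE M21 transcripts, known for 98.8% of tested genes. The ratio to SD 1 alone adds 0.1 CPM to both. Alternatives used limma 3.58.1 (voom), DESeq2 1.42.0, other scalings, filters and sets of libraries. Technical measures were tested by exact permutation over libraries, whose smallest possible two-sided p is 0.0079 here.

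Gene lists and the genes named were chosen with earlier results of these data known. Genes are named if they are markers of the comparison (Wt1, Tcf21, Mki67, Top2a, Timp1), among the 12 higher or 12 lower genes of largest change without overlap and a mean log2 CPM of 1 or more, or among the 4 members of smallest p of a list or members that illustrate a role. Promoters come from RefSeq (GRCm38.p6). Some genes that this rule takes in are not reported here.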

Additional observations from a re-analysis of the deposited data

Results flagged for a closer look

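Values far from the rest of their group were looked for with Dixon's test in 332 groups of 5 HFD or 4 SD libraries. They cover 150 of the genes named and the technical measures. It marked 36 of them, 28 in SD and 8 in HFD, with critical values that mark about 1 in 20 groups of independent, unselected normal values. HFD and SD groups were equal in number. The genes were chosen from these same data and measured in the same libraries, so that rate gives no expected count here. Whether the marked counts differ from chance was not tested. SD 1 was the library in 23 of the 28. Among technical measures these were its 42.3 M reads on genes, its GC trend of -0.57 and its summed Schwann markers of 565 CPM. Among genes of the cell cycle SD 1 stood apart from SD 2 to 4 for Top2a (14.1 CPM), Hmmr (1.09 CPM), Birc5 (1.73 CPM) and Ccnd3 (141 CPM). Among matrix genes it did for Timp1 (99.2 CPM), Serpinf1 (1889.7 CPM), Col3a1 (13604 CPM), Tnc (6.85 CPM), Vcan (334 CPM), Postn (1951 CPM) and Fbln1 (2109 CPM). Among genes of signalling and metabolism it did for Hgf (9.39 CPM), Akt1 (258 CPM), Nr1h2 (73.7 CPM), Tpi1 (207 CPM), Gstm1 (1187 CPM) and Gpx3 (3709 CPM). The others were Tubb4 (79.9 CPM), Zfp385a (286 CPM) and Klf6 (367 CPM).

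SD 4 stood apart for Col4a1 (1692 CPM), Col4a5 (30.6 CPM), Adam12 (76.4 CPM), Trim25 (21.7 CPM) and Greb1 (19.0 CPM). In the HFD group HFD 1 stood apart for Tcf21 (93.5 CPM) and Dbf4 (5.05 CPM). HFD 3 did for Adam12 (234 CPM), Ptprc (1.36 CPM), C1qa (1.01 CPM) and the summed leukocyte markers (67.3 CPM), which were higher there than in the other HFD libraries, while Adam12 was lower. HFD 4 did for Insig1 (133 CPM) and HFD 5 for Tnc (23.0 CPM).

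Frzb was marked because its response to diet differed between the depots, with an interaction of 3.27 on the log2 scale (edgeR adjusted p = 0.0439). The library labelled VWAT SD 5 was marked because it carried the subcutaneous gene Irx1 at 34.6 CPM, where the 9 visceral libraries had 0.307 to 0.790 CPM. The part of sample exchange in that value was not tested.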

How the results depend on the processing

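The number of genes past the threshold depended on most choices. Against 1274 genes higher, DESeq2 called 2118, the 10 libraries labelled VWAT 2138, the fits of 18 and of 20 libraries 1981 and 2803, and the GC correction 650. Against 2541 genes lower, limma-voom called 1626 and the GC correction 1433. With the no-feature share as a covariate 0 were higher and 0 lower by edgeR (1293 at an unadjusted p under 0.05). Leaving out 1 library each gave 0 to 4473 genes higher and 0 to 4081 lower in edgeR, and 1 to 4353 and 0 to 4064 in limma-voom. With the GC correction it gave 1 to 2048 and 0 to 3047. The leave-one-out fits with limma-voom and with the GC correction, the adjusted p of 0.10 and the ratio to SD 1 alone were chosen after seeing the data. The higher genes made up 33.4% of calls in edgeR and 46.2% in limma-voom.

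For libraries of the same replicate number the correlations of their deviations were 0.39, 0.37, 0.26 and -0.22. For libraries of different numbers they ranged from -0.51 to 0.29. Whether libraries pair by number was not tested. With a replicate block 2156 genes were higher and 1936 lower, 52.7% higher, and of 150 genes named 2 lost their call. Only 136 of these 150 genes were called in the fit of 9 libraries. All 136 lost their call without SD 3, and likewise with the no-feature share as a covariate. Without SD 2, SD 4, HFD 1, HFD 4 or HFD 5 the call was lost by 134 or 135. It was lost by 38 with the GC correction, 6 with limma-voom, 7 without an expression filter and none with DESeq2 or RLE factors. Of these 150 genes, none that was called changed sign in a setting tried. Fits that leave out 1 library and fits of fewer genes differ in power by construction, and otherwise the cause was not tested.

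The interaction called 1 gene, and 0 with limma-voom (378 at an unadjusted p under 0.05) and 0 with 20 libraries (605). The GC trend difference of -0.85 between HFD and SD was -1.16 to -0.74 with 1 library left out (exact permutation p = 0.0179 to 0.0857). The no-feature difference of -3.03 percentage points was -4.29 to -2.14 (exact permutation p = 0.0179 to 0.143). At 15.0 M reads 1 CPM is about 15 reads, so low genes such as Col24a1 and Cfi rest on few counts.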
